A study of Mus musculus with 4 samples.

Results

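The Th2 cytokine genes Il4, Il13 and Il5 and the gene of their regulator, Gata3, were examined for accessible chromatin in mouse CD8+ T cells with and without the transcription factors Tcf1 and Lef1. Accessible sites were the peaks of 4 deposited DNase-seq lists, in which DNase I cuts mark open chromatin. A peak was included when its midpoint lay in mm9 at chromosome 11, 53400000 to 53600000, the Th2 cytokine window with Il4, Il13, Rad50 and Il5. The other window was chromosome 2, 9700000 to 10150000, which holds Gata3 at about 9.779 to 9.8 Mb and its surroundings. Of 84735 peaks in all lists, 24 fell in the Th2 cytokine window and 29 in the Gata3 window. Merged wherever they overlapped by at least 1 bp, they formed 11 and 18 regions, out of 38986 regions genome-wide. Regions are numbered along each window from its lower end.

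All mice carried Cre driven by the human CD2 promoter (hCD2-Cre) and a Rosa26-lsl-GFP reporter, in which Cre switches on GFP. Their Tcf1 and Lef1 genes were either wild-type (WT) or both floxed, which Cre turns into a double knockout (DKO). Naive CD8+ T cells (GFP+ TCRbeta+ CD62Lhi CD44lo-med CD8+) were sorted from spleen. They were cultured for 72 h before DNase I digestion, in the presence of the cytokines IL-7 and IL-15. The sample titles all call the cells stimulated (stim CD8), without naming the stimulus. There were 2 libraries per genotype. Separate animals are not stated for them, so p-values compare only these libraries, whose differences may be technical. A permutation of 2 against 2 libraries gives its lowest p whenever the genotypes do not overlap, whatever the spread between replicates.

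IL-4, IL-5 and IL-13 are the signature cytokines of type 2 helper T cells (Th2), which act in allergy and in defence against parasitic worms. Their genes are neighbours, and the DNA repair gene Rad50 between Il13 and Il5 carries a locus control region for them. GATA3 is the transcription factor that drives Th2 differentiation and binds this locus. It is also needed earlier, in thymic T cell development, and mature CD8+ T cells express it. TCF1 and LEF1 are related factors that bind the same short DNA motif, and in CD4+ T cells TCF1 is known to promote Gata3 expression. In CD8+ T cells the Th2 cytokines are normally little expressed. In the order of genes in the GRCm38 annotation, Kif3a precedes Il4, Il13, Rad50 and Il5, and Irf1 follows them. Gata3 is followed by Taf3, Atp5c1, Kin, Itih2 and Itih5. No mm9 gene positions were used other than the Gata3 interval above, so the other sites are given by position, without a gene, and may belong to a neighbour.

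The DNA just before the transcription start of each member is shown because the deleted proteins Tcf1 and Lef1, and GATA3 itself, bind DNA at short motifs that can be looked for there. Each run is the 250 bases before a start in RefSeq, build GRCm38.p6, 5′ to 3′ on the strand of the gene. Capitals mark any match, on either strand, to the letters that were searched. These were CTTTGA (a form of the TCF/LEF core) and GATA preceded by A or T and followed by A or G (GATA factors). The others were TTCNNNGAA (STAT factors, activated by IL-7 and IL-15) and GGAAAA (the NFAT core GGAAA with a further A). Other forms, such as CTTTGT for TCF/LEF or GGAAA without that A, were not searched and stay in lower case. None of these matches overlap each other. For Il4, which has a pair of listed starts, the upstream one is shown. The positions are in GRCm38 and cannot be set beside the mm9 positions of the peaks.
Il4, chr11:53618666-53618915, minus strand: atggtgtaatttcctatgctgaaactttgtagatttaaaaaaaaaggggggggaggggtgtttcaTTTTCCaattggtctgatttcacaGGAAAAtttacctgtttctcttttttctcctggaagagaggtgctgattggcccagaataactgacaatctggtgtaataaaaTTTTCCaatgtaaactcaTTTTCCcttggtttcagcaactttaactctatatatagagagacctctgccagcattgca
Il13, chr11:53634703-53634952, minus strand: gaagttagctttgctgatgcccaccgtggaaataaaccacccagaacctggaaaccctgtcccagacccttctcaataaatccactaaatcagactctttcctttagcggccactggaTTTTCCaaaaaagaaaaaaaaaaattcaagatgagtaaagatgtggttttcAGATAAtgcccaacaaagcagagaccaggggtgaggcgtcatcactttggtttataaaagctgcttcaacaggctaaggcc
Il5, chr11:53720544-53720793, plus strand: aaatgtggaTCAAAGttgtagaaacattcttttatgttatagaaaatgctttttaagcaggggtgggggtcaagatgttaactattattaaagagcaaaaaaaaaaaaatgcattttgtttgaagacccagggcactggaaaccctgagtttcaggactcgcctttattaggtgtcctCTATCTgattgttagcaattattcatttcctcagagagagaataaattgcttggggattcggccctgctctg
Gata3, chr2:9878601-9878850, minus strand: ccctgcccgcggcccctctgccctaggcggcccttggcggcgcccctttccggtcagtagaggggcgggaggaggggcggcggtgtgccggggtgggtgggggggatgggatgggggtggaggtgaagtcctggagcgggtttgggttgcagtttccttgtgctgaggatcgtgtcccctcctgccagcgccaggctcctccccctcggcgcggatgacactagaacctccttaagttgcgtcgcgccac
Among these 4 runs, CTTTGA was found only in Il5, as TCAAAG 241 to 236 bases before the start. Of all 32851 promoter runs of this length, 13.8% held CTTTGA. The form CTTTGT, which was not searched, stands in the Il4 run and, on the other strand, in the Il13 run. GATA letters stood in Il13 (AGATAA, 81 to 76 bases before the start) and in Il5 (CTATCT, 72 to 67 before it), and 26.5% of all runs held some. The Il4 run held 4 matches to GGAAAA and the Il13 run 1, against at least 1 in 20.4% of all runs. The shorter NFAT core GGAAA was not counted. The run before the other Il4 start, not shown, held 0 matches to GGAAAA and 1 GATA match (TGATAG, 80 to 75 bases before that start). The Gata3 run, 70% G and C, held none of the 4 motifs in the forms searched. STAT letters were in none of the 4 runs and in 7.02% of all.

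The 4 lists differ in length, and this touches every count below. WT replicates 1 and 2 held 17521 and 11073 peaks, and DKO replicates 1 and 2 held 34788 and 21353. The lists give no read totals. The fragment pileup at each summit and its local background were solved from the authors' fold and p. The lowest background of a library, a sign of its depth where no control library set it, was 1.50 and 1.47 fragments per position for the WT replicates. For the DKO replicates it was 1.23 and 1.15. The lowest pileup listed was 10 and 9 fragments in WT and 8 in each DKO list. Chromosome Y held 55 and 57 peaks in the DKO lists and 0 in both WT lists, so what sets these calls cannot be told apart from genotype. A missing peak means that a site did not pass the listing thresholds of that library, not that it was closed.

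More sites were called in the Th2 cytokine window in DKO cells than in WT cells. WT replicates 1 and 2 had 3 and 2 peaks in the window, and DKO replicates 1 and 2 had 11 and 8. Both DKO libraries were above both WT libraries, with means of 9.5 ± 2.12 and 2.5 ± 0.707 peaks (SD, n = 2 each). The difference in mean log2(peaks + 1) was 1.58, with p = 0.33 by an exact permutation test (two-sided), the lowest that 2 against 2 libraries allow. Per 1000 peaks of each list, WT replicates 1 and 2 had 0.171 and 0.181 and DKO replicates 1 and 2 had 0.316 and 0.375, again without overlap. With every list held to the 11073 peaks of highest −log10 p, the WT libraries kept 3 and 2 peaks and the DKO libraries 1 and 5. At equal length the genotypes overlapped and the log2 difference was 0 (exact permutation p = 1).

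**Figure D1:**
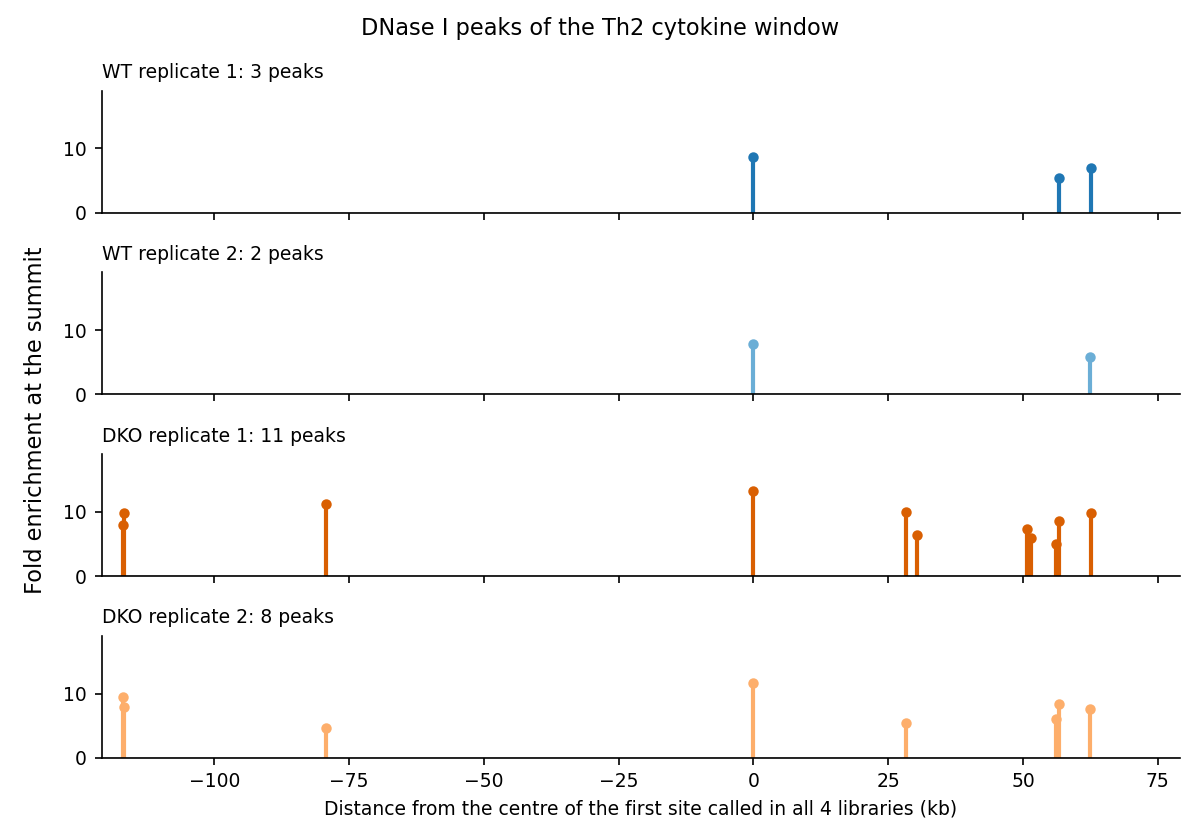
Fold enrichment at the summit (vertical axis) of each peak of the Th2 cytokine window, by distance in kb from the centre of the first site called in all 4 libraries (horizontal axis), 1 panel per library. The WT panels hold 3 and 2 peaks, all at or above that site, and the DKO panels hold 11 and 8, including 3 each below it.

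DKO replicate 1, the longest list, had a call in all 11 regions of the Th2 cytokine window, as in 88.6% of all regions. DKO replicate 2 had one in 8 (72.7%), against 53.9% of all regions. No region was called in both WT libraries and neither DKO library (genome-wide 0.631%), nor in any WT library without a DKO call (6.4%). Of the 11 regions, 2 were called in all 4 libraries (18.2%), against 20.7% of all regions genome-wide. DKO-only regions, called in both DKO libraries and neither WT library, numbered 5 (45.5%), against 14.3% of all regions. At least 1 DKO and no WT call was found in 8 of 11 (72.7%), against 50.3%. Of the 6699 windows of 200 kb on a fixed grid that held a region, 1.52% had 5 or more DKO-only regions, and 15.4% had 11 or more regions of any kind. Some of these 5 regions lie close together. Joining peaks within 500 bp left 3 DKO-only regions of 9, against 14.3% genome-wide. The share of grid windows was not computed for joined peaks. At equal list length by −log10 p there were 0 of 5, where the genome-wide share was 5.75%. Without DKO replicate 2 there were 8 of 11, against 48.1%, since 3 calls of DKO replicate 1 then joined the class.

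The first pair of DKO-only regions lay at the lower edge of the window, 74 bp apart. Region 1, chromosome 11, 53403909 to 53404035, had folds of 8.03 and 9.52 in DKO replicates 1 and 2, from pileups of 18 and 21 fragments. Region 2, 53404110 to 53404269, had folds of 9.77 and 7.87, from 22 and 17 fragments. The DKO summits coincided within 12 bp in region 1 and 8 bp in region 2, and neither WT list had a call there. These were mid-list peaks, at rank 20882 and 16130 of 34788 by −log10 p in DKO replicate 1 and at 6936 and 10315 of 21353 in DKO replicate 2.

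Region 3, 53441465 to 53441643, stood alone, 37.2 kb above region 2 and 79.1 kb below region 4. No library had a call in either of those stretches, the longest in the window without a region. The DKO libraries differed here more than at any other DKO-only region of the window. DKO replicate 1 had a fold of 11.2 from 24 fragments, and DKO replicate 2 a fold of 4.57 from 10 fragments, with summits 10 bp apart. The latter was at rank 19877 of 21353 in its list, close to its end.

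Region 4, 53520783 to 53521058, was the strongest site of the window in every library by fold. Its folds were 8.57 and 7.82 in WT, replicate 1 first, and 13.3 and 11.7 in DKO. The pileups were 22 and 20 fragments in WT and 31 and 25 in DKO. To set libraries side by side, the pileup was divided by the lowest background of its library, called the scaled signal here. WT reached a scaled signal of 14.7 and 13.6, and DKO one of 25.2 and 21.8, a ratio of DKO to WT means of 1.66. Both DKO values were above both WT values. The same was so at 84.8% of the 8039 regions called in all 4 libraries with a solved pileup, where the median ratio was 2.03. At 21.5% of those regions the ratio was as low as at region 4 or lower. The DKO signal at region 4 was thus above WT by less than at most shared sites.

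Region 5, 53549222 to 53549347, was DKO-only, with folds of 9.97 and 5.39 from 24 and 13 fragments in DKO replicates 1 and 2. The next 3 regions were called in DKO replicate 1 alone. These were region 6 (53551248 to 53551346, fold 6.41), region 7 (53571662 to 53571748, fold 7.30) and region 8 (53572349 to 53572458, fold 5.98). Their pileups were 15 to 20 fragments, and they were 87 to 110 bp wide, narrower than any region with a WT call.

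Regions 9 and 10 were neighbours, 94 bp apart, and differed in their WT calls. Region 9, 53576936 to 53577107, was DKO-only, with folds of 4.99 and 6.07 from 19 and 20 fragments in DKO replicates 1 and 2. Region 10, 53577202 to 53577646, the widest of the window at 445 bp, also had a call in WT replicate 1. Its folds were 5.39 in WT replicate 1 and 8.51 and 8.35 in DKO replicates 1 and 2, from 19, 31 and 27 fragments. Region 9 therefore adjoins a stretch that 1 WT library also called.

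Region 11, 53583308 to 53583582, was the second region called in all 4 libraries. Folds were 6.90 and 5.84 in WT, replicate 1 first, and 9.77 and 7.63 in DKO. The scaled signal was 14.8 ± 1.66 in WT and 23.0 ± 5.42 in DKO (SD, n = 2 each), a ratio of 1.55. The 4 summits lay within 13 bp. As at region 4, both DKO values were above both WT values and the ratio was below the genome-wide median, with 15.2% of shared regions as low or lower.

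More sites were also called around Gata3 in DKO cells. WT replicates 1 and 2 had 4 and 2 peaks in the window and DKO replicates 1 and 2 had 15 and 8. The means were 3 ± 1.41 and 11.5 ± 4.95 peaks (SD, n = 2 each), a log2(peaks + 1) difference of 1.63 (exact two-sided permutation p = 0.33, the lowest possible). Per 1000 peaks of the list, WT had 0.228 and 0.181, and DKO had 0.431 and 0.375. At equal list length the counts were 2 and 2 in WT and 4 and 4 in DKO, so the genotypes still did not overlap, at a log2 difference of 0.74 (exact permutation p = 0.33). Without DKO replicate 1 the log2 difference over the full lists was 1.22.

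**Figure D2:**
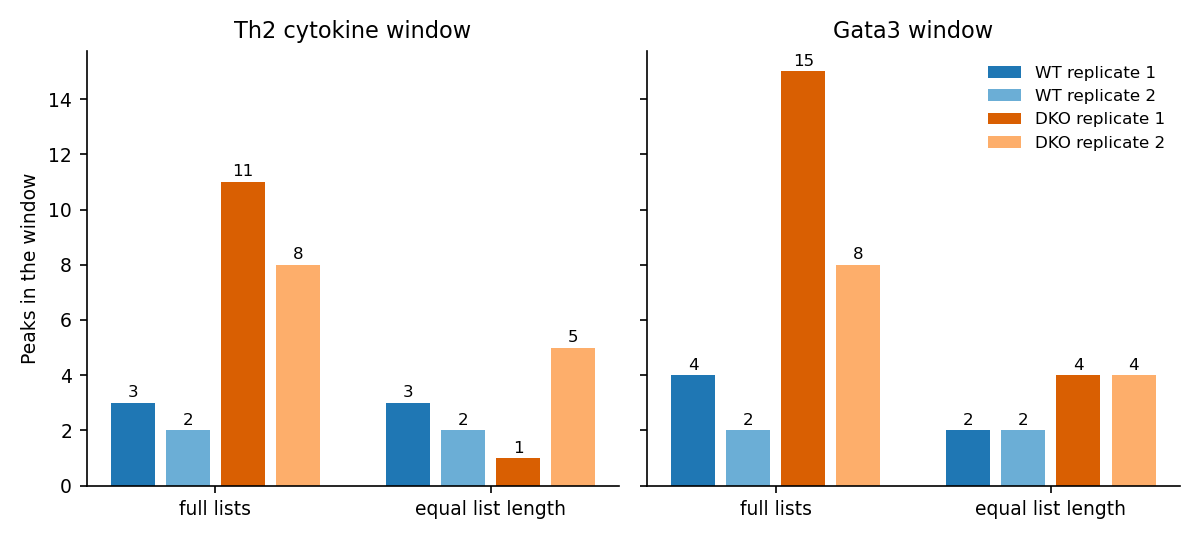
Peaks in each window (vertical axis) for the 4 libraries, over the full lists and with each list held to 11073 peaks by −log10 p; each bar is 1 library. At equal length the Th2 cytokine window has 3 and 2 WT against 1 and 5 DKO peaks, and the Gata3 window 2 and 2 against 4 and 4.

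Of the 18 regions of the Gata3 window, 2 were called in all 4 libraries (11.1%, against 20.7% genome-wide) and 2 were DKO-only (11.1%, against 14.3%). Here too, no region had a WT call without a DKO call. At least 1 DKO and no WT call was found in 14 of 18 (77.8%), against 50.3% genome-wide. Most of these were seen once. A call in DKO replicate 1 only was found in 10 regions (55.6%, against 31.6% genome-wide), and one in DKO replicate 2 only in 2 (11.1%, against 4.3%). Without DKO replicate 1 there were 4 DKO-only regions of 8, against 27.5% genome-wide under that setting. Without DKO replicate 2 there were 12 of 16, against 48.1%. The median of the 3760 windows of 450 kb with a region was 8 regions, and 18.9% held 18 or more. Of the same windows, 35.6% had 2 or more DKO-only regions.

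**Figure D3:**
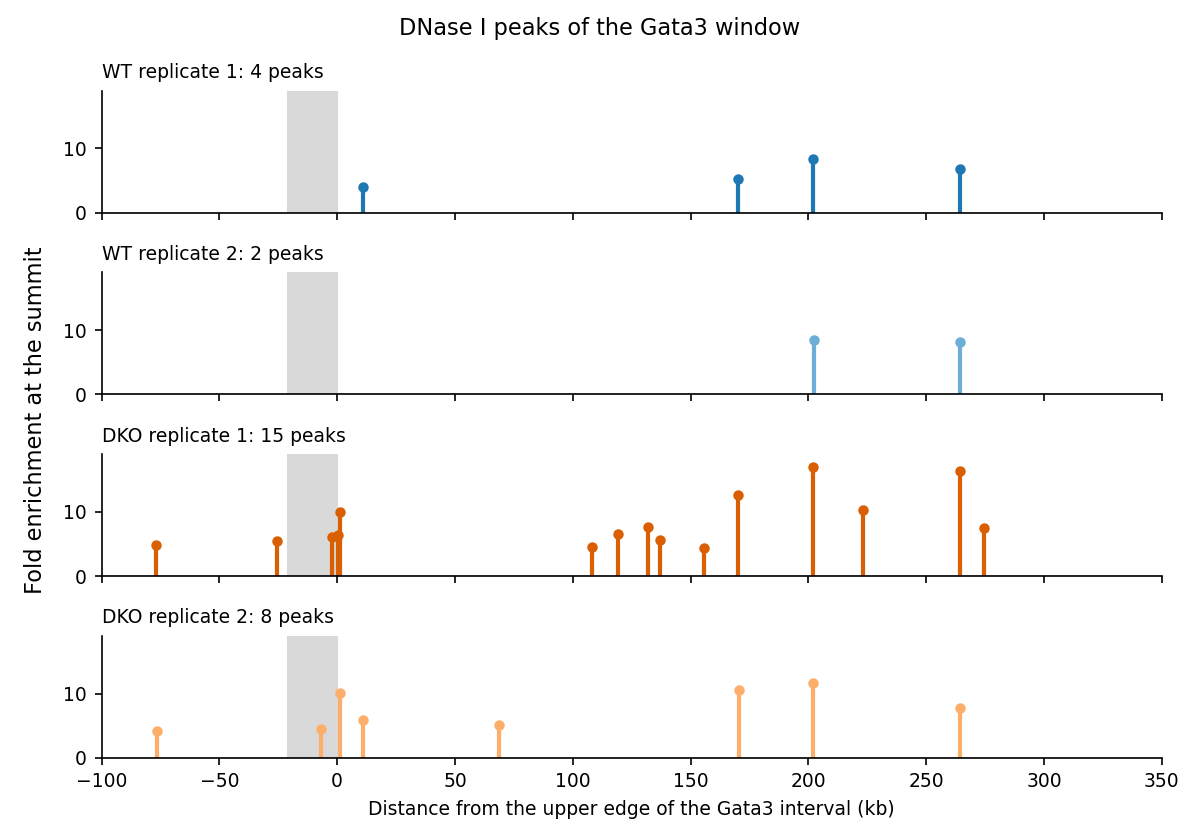
Fold enrichment at the summit (vertical axis) of each peak of the Gata3 window, by distance in kb from the upper edge of the Gata3 interval (horizontal axis; the interval is shaded), 1 panel per library. Both DKO panels have a peak of fold 9.92 or 10.1 just above the edge, where the WT panels have none.

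The DKO-only site nearest Gata3 was region 6, chromosome 2, 9801217 to 9801424. It began about 1.22 kb above the upper edge of the Gata3 interval, which is itself approximate. This is the side of the transcription start, since Gata3 is on the minus strand. DKO replicates 1 and 2 had folds of 9.92 and 10.1 there, from pileups of 52 and 39 fragments over local backgrounds of 4.35 and 2.94. It ranked 6432 of 34788 and 2608 of 21353 by −log10 p. Neither WT library had a call. The scaled signal was 42.3 and 34.0, above that of every DKO-only region of the Th2 cytokine window. Genome-wide, 1426 regions reached at least 34.0 in both DKO libraries, and 75 of them (5.26%) had no WT call, while 89.1% were called in both WT libraries. For the other 6 DKO-only regions of both windows, 15.2 to 27.7% of the regions with as high a signal in both DKO libraries had no WT call. These shares match sites by scaled signal, which leaves out the local background, while fold and p depend on it. The local background of region 6 was high, so sites matched to it can have higher folds. All of these regions were picked for having no WT call, so the shares are a description and no test. Region 6 stayed DKO-only with −log10 q of at least 5 or 10, with a fold of at least 8 and at equal list length by −log10 p. It left the class at equal length by fold, where DKO replicate 1 lost its call.

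Around the same edge DKO replicate 1 had a pair of further calls of its own. Region 4, 9797751 to 9797842, lay inside the Gata3 interval with a fold of 6.10, and region 5, 9800191 to 9800328, lay 0.191 kb above it with 6.36. The edges of the interval are approximate, so whether region 5 lies inside or outside the gene cannot be told. Both had pileups of 32 fragments over backgrounds of 4.41 and 4.19, the highest local backgrounds of the window beside that of region 6. Inside the interval, DKO replicate 2 had a single call, region 3, 9792965 to 9793058, with a fold of 4.51 from 12 fragments. No WT library had a call in the interval or within 10 kb of its upper edge.

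The nearest WT call was in region 7, 9810984 to 9811165, 10.984 kb above the interval. WT replicate 1 had a fold of 4.04 there from 12 fragments, rank 17144 of 17521 in its list, and DKO replicate 2 a fold of 5.90 from 15. WT replicate 2 and DKO replicate 1 had none, although DKO replicate 1 was the longest list. The calls at this site therefore did not follow genotype, and the WT call was near the listing limit.

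Below the gene, region 1, 9723112 to 9723471, was the other DKO-only region, 55.5 kb from the interval. Its folds were 4.85 and 4.22 in DKO replicates 1 and 2, from 12 and 10 fragments, and its summits were 173 bp apart. It was among the weakest peaks of each list, at rank 31735 of 34788 and 20693 of 21353. Region 2, 9774282 to 9774452, had a fold of 5.48 in DKO replicate 1 alone.

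Between 68.5 and 155 kb above the interval lay 6 regions, each called in 1 DKO library. DKO replicate 2 had region 8, 9868452 to 9868563, with a fold of 5.12. DKO replicate 1 had regions 9 to 13, from 9907929 to 9955552, with folds of 4.37 to 7.69 and pileups of 9 to 17 fragments. None of them was seen in a second library.

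The sites of highest fold in each library of the window lay farther from Gata3, 170 to 264 kb above the interval. By scaled signal, region 6 was above regions 14 and 17 in both DKO libraries and above region 15 in DKO replicate 2. Region 14, 9970168 to 9970469, had a fold of 5.19 in WT replicate 1, no call in WT replicate 2, and folds of 12.7 and 10.5 in DKO replicates 1 and 2. The pileups were 16 fragments in WT replicate 1 and 38 and 26 in the DKO libraries. At equal list length the WT replicate 1 call was lost and the region counted as DKO-only.

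Region 15, 10002011 to 10002294, had the highest fold of both windows in DKO replicate 1. Folds were 8.31 and 8.49 in WT, replicate 1 first, and 17.0 and 11.6 in DKO, from 28, 27, 68 and 36 fragments. WT reached a scaled signal of 18.7 and 18.4, and DKO one of 55.3 and 31.4, a ratio of means of 2.34. Both DKO values were above both WT values, and the ratio was above the genome-wide median of 2.03, with 74.9% of shared regions as low or lower. Most of the spread was within DKO, at 43.4 ± 16.9, against 18.5 ± 0.170 in WT (SD, n = 2 each).

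Region 17, 10064401 to 10064655, was the remaining region called in all 4 libraries. Folds were 6.80 and 8.19 in WT, replicate 1 first, and 16.4 and 7.75 in DKO. WT reached a scaled signal of 10.7 and 14.3, and DKO one of 33.4 and 14.0, so the genotypes overlapped. The ratio of means, 1.89, rests on DKO replicate 1. Beside these sites DKO replicate 1 alone had region 16, 10022914 to 10023062, with a fold of 10.2 from 24 fragments, and region 18, 10074394 to 10074485, with 7.52 from 18.

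**Figure D4:**
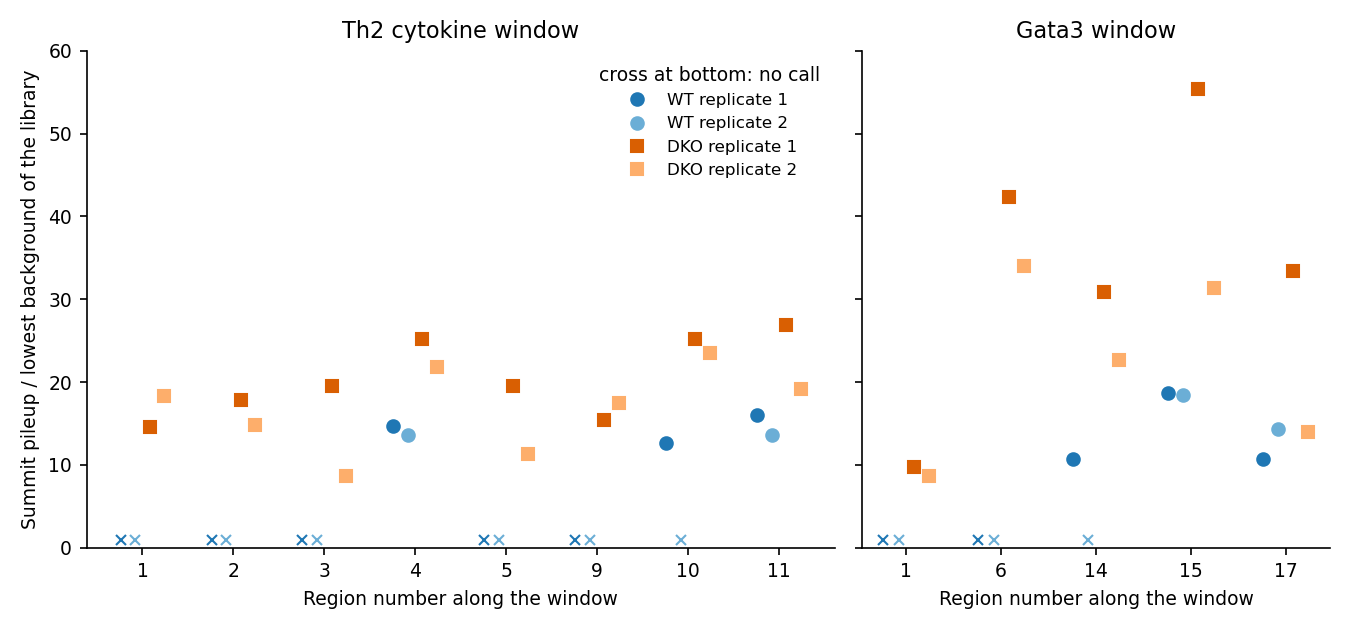
Summit pileup divided by the lowest background of the library (vertical axis) at the regions that were DKO-only or called in at least 3 libraries, by region number along each window (horizontal axis); points are single libraries and crosses mark no call. Region 6 of the Gata3 window, at 42.3 and 34.0, has no WT call, while region 15, at 55.3 and 31.4, has WT values of 18.7 and 18.4.

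Within the windows, merged regions with a WT call were wider than regions seen in 1 library. In the Th2 cytokine window the 3 regions with a WT call were 275 to 445 bp wide and the 3 seen in 1 library 87 to 110 bp. In the Gata3 window the 4 regions with a WT call were 182 to 302 bp wide and the 12 seen in 1 library 89 to 171 bp. DKO-only regions were 126 to 179 bp wide in the Th2 cytokine window and 208 to 360 bp in the Gata3 window. The widest region of the Gata3 window was thus DKO-only. A region merged from several lists can only grow, so width and number of calls are not independent. Running peak numbers in the DKO lists skipped 1 between 10002253 and 10022914 in replicate 1 and 1 between 9868563 and 9970177 in replicate 2.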

How the data were processed

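DNase-seq was measured in 4 libraries of mouse CD8+ T cells, 2 WT and 2 DKO, grouped and numbered by the sample titles. Bowtie2 2.2.5, MACS2 2.1.1, FastQC and the build mm9 come from the submitters' processing notes. Settings, any control library and the treatment of duplicates were not given in the sources used here. The authors deposited 1 peak list per library, so peaks were not called on pooled reads. The deposited fold enrichment is a ratio of summit pileup to local background. The deposited −log10 p and −log10 q are those of the peak, the deposited score is 10 times the −log10 q, and deposited positions count from 0 (converted here to count from 1). These are the authors' values. Ranks were taken within a list, and folds of different lists are shown side by side. Common cuts of fold and −log10 q were applied to all lists as alternatives, and libraries were compared by the scaled signal.

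Pileup and background were solved from fold, taken as (pileup + 1)/(background + 1), and the Poisson p, for peaks with −log10 p under 250. Pileups were whole within 0.02 for 100% of peaks, and the solution was tested on simulated data. The lowest background measures depth only if no control library set it. Precision is limited by pileups of 9 to 68 fragments per site, and reads carry no molecular identifiers. Peak numbers were compared as log2(peaks + 1) with an exact permutation test over libraries. Classes of regions have no test.

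The windows, members, motifs and tests were chosen with earlier results of these data known. Regions given in full were those called in all 4 libraries, those called in 1 genotype only, and the 5 of highest fold per window; the rest were added so that every region is accounted for. Planned checks of cell type markers and other Th2 genes needed an mm9 annotation, which was not used here. Alternatives covered −log10 q, fold, list length, window edges, merging, overlap and leaving out each library. Python 3.11.15, numpy 2.4.6, pandas 2.3.3 and scipy 1.17.1 were used.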

Additional observations from a re-analysis of the deposited data

How the results depend on the processing

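With 2 libraries per genotype no test could pass 0.05, so stability means direction here. The Gata3 log2 difference in peaks stayed positive in 14 of 14 alternatives (0.58 to 2.05), and the Th2 difference in 13 of 14; at equal list length by −log10 p the latter was 0, and at equal length by fold it was 0.50. Leaving out 1 library gave 1.38 to 1.79 for Th2 and 1.22 to 2.05 for Gata3. The replicate block left the differences at 1.58 and 1.63 (exact sign-flip p = 0.50, the smallest possible). The replicate numbers are not stated to pair libraries, and their deviations at shared regions had a correlation of -0.026.

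Genome-wide shares under the same setting follow in brackets. DKO-only regions of the Th2 window were 5 of 11 over the full lists (14.3%). They were 3 of 8 at −log10 q of at least 10 (16.6%) and 2 of 7 at fold of at least 8 (21.8%). In both of those settings region 10 had lost its WT call and was counted, while region 9 was not. At equal length they were 0 of 5 by −log10 p (5.75%) and 0 of 6 by fold (5.78%). Merging within 500 bp left 3 of 9 (14.3%), and windows widened by 100 kb held 9 of 25 (14.3%). Leaving out 1 library gave 5 to 8 (16.9 to 48.1%), with 8 of 11 without DKO replicate 2 (48.1%). For Gata3 they were 2 of 18 over the full lists (14.3%) and 4 of 28 in the widened window (14.3%). At −log10 q of at least 5 there was 1 of 13 (15.3%), region 6. At equal length by fold there was 1 of 4 (5.78%), region 14. There were 2 of 9 at −log10 q of at least 10 (16.6%) and 2 of 5 at fold of at least 8 (21.8%). At equal length by −log10 p there were 2 of 4 (5.75%). Each of these pairs was regions 6 and 14, without region 1. Region 14 had a WT replicate 1 call in the full lists. Leaving out 1 library gave 2 to 12 (16.9 to 48.1%), with 4 of 8 without DKO replicate 1 (27.5%) and 12 of 16 without DKO replicate 2 (48.1%). Fewer lists can only raise such counts.

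Regions called in all 4 libraries were 2 per window over the full lists, where the genome-wide share was 20.7%. At −log10 q of at least 10 (12.7% genome-wide) they were 1 of 8 for Th2 and 1 of 9 for Gata3. In the Th2 window they were 1 of 5 at equal length by −log10 p (29.3% genome-wide) and 1 of 6 by fold (27.0%). They were 0 of 7 at fold of at least 8 (7.54%). When peaks had to cover 50% of the region they were 0 of 11 (12.6%). For Gata3 they were 1 of 5 at fold of at least 8 (7.54%) and 4 of 28 in the widened window (20.7%). Leaving out 1 library gave 2 to 3 in either window (23.1 to 32.7% genome-wide). WT-only regions were 0 in each window under all 13 alternatives. The causes were not tested.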
